A study of Homo sapiens with 47 samples.

Results

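H3K9me3 was profiled by ChIP-seq in 451Lu cells that carry a short hairpin RNA against p150 and over-express c-JUN and c-FOS (shp150_AP1), and in their control cells with a vector and an NT control (vector_NT). 451Lu is a human melanoma cell line used to study resistance to the BRAF inhibitor vemurafenib, and all groups share this line. The comparison used 4 of the 47 samples of the series, replicates 1 and 2 of shp150_AP1 and of vector_NT. They were chosen by antibody and genotype label, without measured values. Beside them stand the 4 H3K9me3 libraries of vemurafenib-resistant and parental 451Lu cells and the 4 ATAC-seq libraries of shp150_AP1 and vector_NT cells. The labels do not give the number of clones, the promoter of the constructs or separate cultures for the replicates, so the p-values measure the spread between these samples, which may be technical. The hairpin and the over-expression were made together, so their effects on H3K9me3 cannot be told apart in these libraries.

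H3K9me3 is the histone mark of constitutive heterochromatin. It is laid down by enzymes such as SETDB1 and SUV39H1, is bound by HP1 proteins, and covers satellite repeats, transposons and the KRAB zinc finger gene clusters of chromosome 19. p150, encoded by CHAF1A, is the large subunit of CAF-1, the chaperone that places new histones H3 and H4 behind the replication fork and that also binds HP1. c-JUN and c-FOS are the partners of AP-1, a transcription factor that opens enhancers in drug-resistant melanoma cells.

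One region stood in both vector_NT lists and in neither shp150_AP1 list, and had the most ChIP reads of the 3 widest regions lost in this way. It lay in the type I interferon cluster at 9p21, a family of antiviral cytokine genes. It spans 24 kb at chromosome 9, 21203801 to 21227800 (hg19), as a merged run of the authors' islands. In vector_NT it held 1250 ChIP reads over 274 input reads and 1170 over 396, a fold of 3.61 and 3.51 on the authors' scale. By general knowledge of hg19 it contains IFNA10, an interferon alpha gene, a name added after the values were seen. Whether it holds other genes of the cluster was not looked up. The promoter of IFNA10 is shown because it lies inside the region that lost its islands. It is the RefSeq sequence of GRCh38.p14, minus strand, chr9:21207094-21207393, from 250 bases before to 50 bases after the start, with the TATA-like box TATTTAA in capitals.
IFNA10 promoter: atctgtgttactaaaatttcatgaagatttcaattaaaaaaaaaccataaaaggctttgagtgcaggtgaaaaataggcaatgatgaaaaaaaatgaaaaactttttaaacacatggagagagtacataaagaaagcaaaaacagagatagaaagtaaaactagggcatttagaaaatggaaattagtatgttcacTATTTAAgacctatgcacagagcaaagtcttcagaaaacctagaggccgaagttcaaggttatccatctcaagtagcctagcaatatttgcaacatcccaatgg
On either strand this window held 1 match to TATTTAA, and 4.52% of 35116 RefSeq promoters of the same length hold that motif. It held no match to the AP-1 motif TGANTCA, which is found in 7.71% of the promoters.

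The authors listed broad islands of ChIP reads over input reads, as called in each library. The shp150_AP1 lists held 63295 and 48704 islands over 268 and 318 Mb, and the vector_NT lists 76857 and 67147 islands over 396 and 379 Mb. In units of 1000000 reads, ChIP reads inside islands came to 11.5 and 14.9 in shp150_AP1 and 31.1 and 21.8 in vector_NT, and input reads to 11.1 and 12.98 in shp150_AP1 and 12.8 and 12.996 in vector_NT. Both shp150_AP1 lists therefore covered less of the genome and held fewer ChIP reads than either vector_NT list, and the part of this depth in the calls was not tested. The base overlap (Jaccard index) was 0.504 between the shp150_AP1 replicates, 0.610 between the vector_NT replicates and 0.458 to 0.501 between the groups. As a check of the cell type, the window of MITF, the master regulator of the lineage, held 26 and 24 ATAC-seq peaks in shp150_AP1 and 26 and 25 in vector_NT, and that of SOX10, its upstream regulator, held 1 peak in each library. Of the 7 melanocytic windows 5 overlapped between the groups, TYR had more peaks in shp150_AP1 (3 and 3) than in vector_NT (1 and 1), and DCT had fewer in shp150_AP1 (1 and 1) than in vector_NT (2 and 2). Each window held a peak in every library, except that PMEL held 0 in vector_NT replicate 1. Levels of p150, c-JUN and c-FOS were not used here, so the labels were not checked against them.

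Islands of the 4 libraries were merged into 81084 regions. Among them, 1506 regions (1.86%), 7.98 Mb in all, were called in both shp150_AP1 and neither vector_NT library and are named gained. In the reverse sense 11243 regions (13.9%), 47.4 Mb, were lost, which is 7.47 lost per gained region. A further 27696 regions, 353 Mb, were called in all 4 libraries. With 2 libraries against 2 the smallest exact two-sided permutation p is 0.333, so these counts carry no test. Gained regions had a median width of 4800 bp, lost regions 3800 bp and regions called in all 4 libraries 8200 bp.

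The excess of losses was smaller when the lists were made equally long. With the 48704 islands of highest ChIP over input ratio from each library, 4192 regions were gained and 7453 lost, or 1.78 lost per gained, and the gained regions covered 30.9 Mb against 29.1 Mb lost. Leaving out 1 library changed the counts too. Without shp150_AP1 replicate 1 there were 4196 gained and 17523 lost regions, without shp150_AP1 replicate 2 8224 and 15762, without vector_NT replicate 1 3179 and 17646, and without vector_NT replicate 2 2188 and 23741. Losses outnumbered gains in each of these counts, by 1.92-fold to 10.9-fold.

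Over the whole 450 kb window of the interferon cluster, islands covered 1.07% and 0% in shp150_AP1 and 8.13% and 8.76% in vector_NT. The groups did not overlap, but this order follows in part from the choice of the 24 kb lost region, which lies inside the window. Both shp150_AP1 lists also covered less of the whole genome than either vector_NT list. Of the 9 regions in the window 4 were lost, 5 were called in a mixed set of libraries and none was gained, where 13.9% of all merged regions were lost and 1.86% gained. In cells not used to call the loss the order was alike: islands covered 0% and 0.533% of the window in resistant cells and 6.98% and 7.42% in parental cells. A region missing from a list can still hold ChIP reads below the authors' threshold, so the loss is one of calls.

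Other lost regions had higher ratios but were narrow, ranked among those with at least 50 ChIP and 10 input reads in each vector_NT library. Chromosome 7, 63225801 to 63228400, had folds of 12.4 and 10.6 in vector_NT, and chromosome 14, 70943601 to 70945200, had 9.14 and 9.94. Chromosome 9, 132236801 to 132238000, had 6.66 and 9.98, and chromosome X, 91510601 to 91513800, had 6.46 and 10.97. Each rests on 10 to 31 input reads per library. The widest losses besides the interferon region spanned 25.8 kb at chromosome 2, 109698801 to 109724600, with folds of 1.46 and 2.08 in vector_NT, and 23.2 kb at chromosome X, 58297001 to 58320200, with 6.22 and 5.26. The region on chromosome 2 was not absent from resistant cells, where its islands had folds of 2.13 and 2.52, against 2.01 and 2.16 in parental cells.

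Among gained regions the median fold was 1.97 and 1.75 in shp150_AP1, and among lost regions 2.25 and 2.32 in vector_NT. Among gained and lost regions with at least 50 ChIP and 10 input reads in each calling library, the highest gained ratios were at chromosome 10, 132784801 to 132787800, with folds of 4.84 and 3.86 in shp150_AP1, and at 44646201 to 44649200 of the same chromosome, with 4.203 and 4.985. Chromosome 19, 11531401 to 11535200, had 4.87 and 3.76, and chromosome 7, 70965401 to 70970400, had 4.72 and 3.67. The widest gain spanned 31.4 kb at chromosome 2, 22600401 to 22631800, with folds of 1.49 and 1.79. It was followed by 25.2 kb at chromosome 2, 126743401 to 126768600 (1.88 and 1.87), and 18.6 kb at chromosome 5, 161838801 to 161857400 (1.67 and 1.52). The folds of these 7 gained regions lay below those of the 4 narrow losses. Both sets are extremes picked from lists of unequal length, 1506 gained and 11243 lost regions, so this order does not compare gains with losses. The widest gains lay under a fold of 2 in both shp150_AP1 libraries.

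Gains and losses were not spread evenly over the chromosomes. Losses made up 27.7% of the regions on chromosome X, 22.8% on 6, 22.8% on 10, 21.95% on 9 and 20.2% on 18, but 2.07% on 20 and 2.05% on 22. Gains made up 4.97% on chromosome 22, 4.01% on 20 and 3.10% on 17, and X had none among 834 regions. Chromosomes 20 and 22, with the fewest losses, also had many input reads per kb of island. In the parental libraries, which took no part in the calls, chromosome 22 averaged 47.9 and chromosome 20 45.5 input reads per kb, against 19.3 on X, 20.1 on 10 and 18.96 on 18. This did not hold for every chromosome: 3 and 11 had the highest input density, 79.8 and 50.4, and lost 16.8% and 15.7%, while 14 and 19, at 21.2 and 23.6, lost 10.5% and 10.8%. Across the 23 chromosomes Spearman's rho with this input density was -0.59 for the share lost and 0.58 for the share gained, as a description. Without chromosomes 3 and 11, left out after their values were seen, it was -0.75 and 0.68 over 21 chromosomes. Gained regions had 33.3 and 33.9 input reads per kb of island in shp150_AP1, lost regions 23.8 and 25.2 in vector_NT, and regions called in all 4 libraries 43.5 and 42.6 in shp150_AP1 and 35.5 and 37.4 in vector_NT. The part of input density in the calls was not tested.

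**Figure D1:**
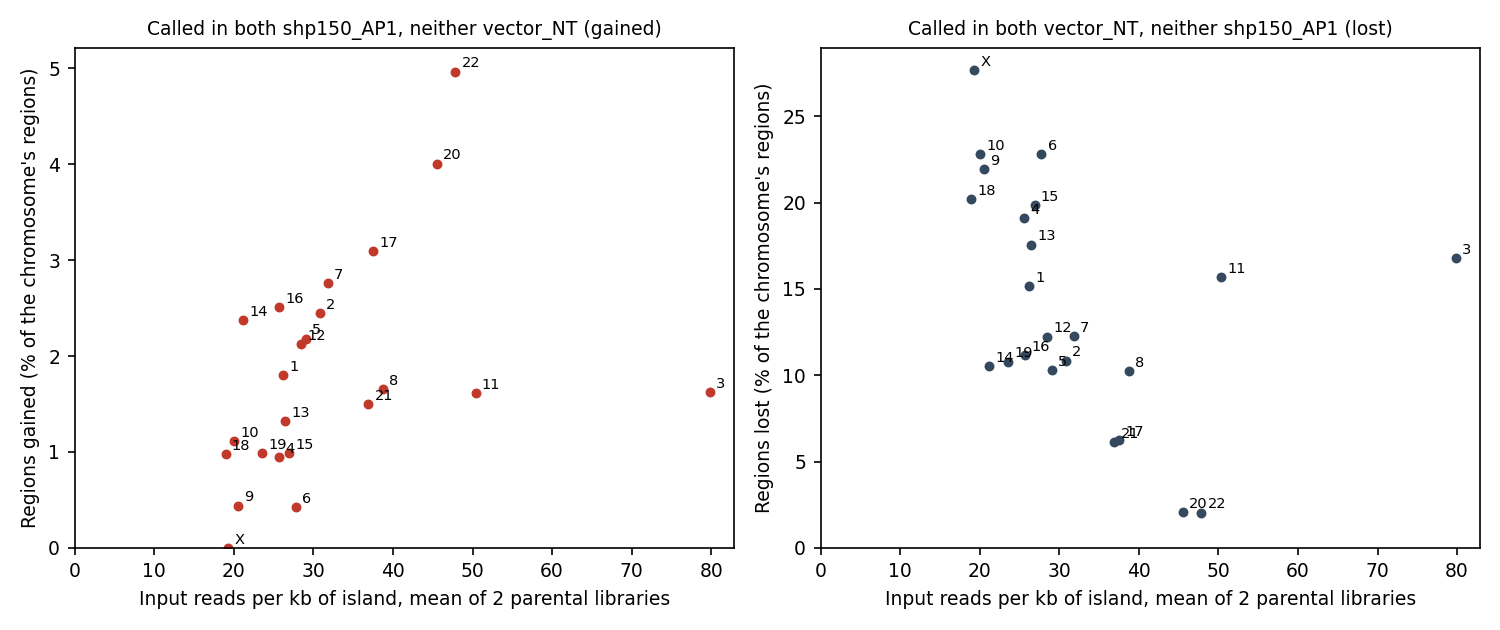
Share of regions gained (left) and lost (right) on each chromosome, in percent of the chromosome's merged regions, against the mean input reads per kb of island in the 2 parental libraries. Each point is 1 chromosome. Chromosomes 20 and 22 combine 4.01% and 4.97% gained with 2.07% and 2.05% lost, and X has 27.7% lost and none gained.

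Regions called in all 4 libraries allow the ratio itself to be compared, over the bases covered by each library's own islands. The covered share of a region differed by a median of -10.5 points, shp150_AP1 minus vector_NT. Of the 27670 regions tested, 12795 had at least 50% covered in all 4 libraries. Log2 ratios of ChIP to input over these 27670 regions had a Pearson's r of 0.709 between the shp150_AP1 replicates. It was 0.80 between the vector_NT replicates. Against vector_NT replicates 1 and 2, r was 0.701 and 0.703 for shp150_AP1 replicate 1, and 0.738 and 0.736 for replicate 2. Replicate 2 of shp150_AP1 thus lay closer to both vector_NT libraries than to replicate 1. ChIP and input reads of each region were fitted together with edgeR's quasi-likelihood test, so that a value is the log2 difference of ChIP over input, shp150_AP1 minus vector_NT. Of 27670 regions tested, 155 (0.56%) were higher and 159 (0.575%) lower in shp150_AP1 at an adjusted p under 0.05, or 1.13% in all. Each of the 314 regions had values that did not overlap between the groups, which held for 42.04% of all tested regions. The median log2 difference was 0.04. On the authors' own scaling per library, the median lay at -0.10, and the split was 34 higher and 511 lower, so the direction of calls depends on where the centre is set. Fitting ChIP reads alone gave 635 higher and 473 lower, and limma on log2 ratios gave none, with 1418 higher and 1123 lower at an unadjusted p under 0.05. Without vector_NT replicate 1 there were 58 higher and 116 lower, without vector_NT replicate 2 44 and 93, and without shp150_AP1 replicate 2 176 and 276. Without shp150_AP1 replicate 1 the balance was the other way, with 188 higher and 138 lower.

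The change followed the level of H3K9me3 in cells outside the comparison. The 24868 tested regions with at least 10 input reads in both parental libraries were divided into 10 classes by their mean parental fold. In the lowest class, with a median parental fold of 1.34, the median log2 difference was 0.16. It fell with each class to -0.13 in the highest, where the median parental fold was 4.26. On the authors' scale the lowest class had median folds of 1.41 and 1.29 in shp150_AP1 and 1.31 and 1.35 in vector_NT. In the highest class these were 3.32 and 3.08 in shp150_AP1 and 3.80 and 3.87 in vector_NT. The groups thus overlapped in the weakly marked regions and did not overlap in the strongly marked ones. The median difference in covered share, shp150_AP1 minus vector_NT, was -3.06 points in the lowest class and -14.6 in the highest. Median widths were 12400 bp in the lowest class and 6200 bp in the highest. The part of coverage and width in this trend was not tested.

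The calls had the same order. The lowest 3 classes held 135 of the 149 higher calls with a parental value, and 10 of the 158 lower ones. In the highest 3 classes these numbers were 4 and 104. The median parental fold was 1.38 for regions called higher, 3.25 for regions called lower and 2.40 for all tested regions. With regions limited to a fold of at least 1.5 in both parental libraries, 34 were higher and 140 lower of 21174 tested.

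**Figure D2:**
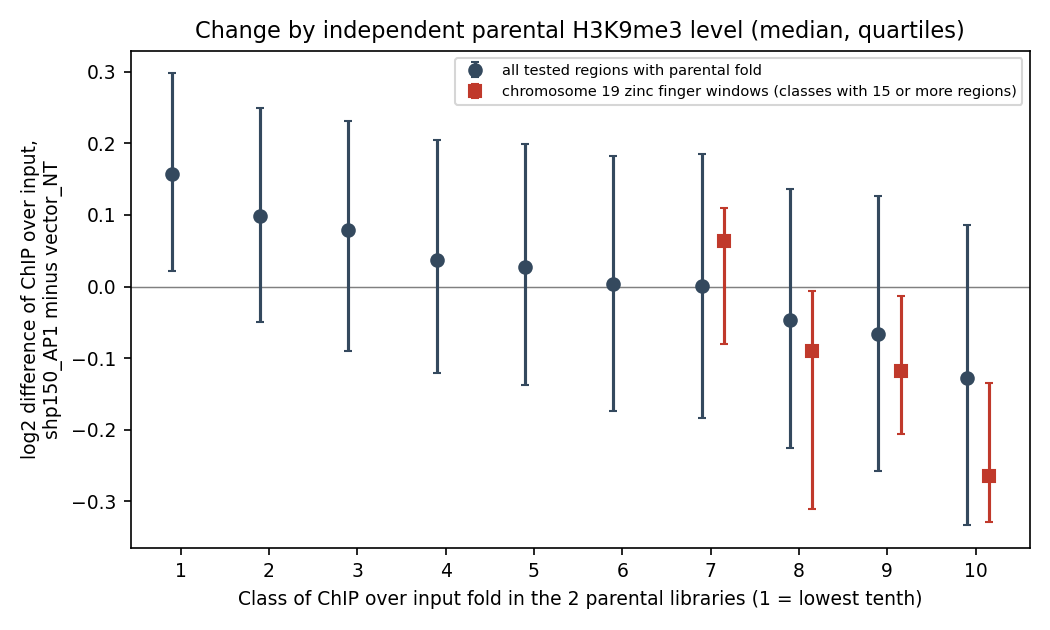
Median log2 difference of ChIP over input, shp150_AP1 minus vector_NT, by class of parental fold from the lowest (1) to the highest (10), with bars from the lower to the upper quartile. Dark points are all tested regions with a parental value and red squares the zinc finger windows of chromosome 19. The medians fall from 0.16 to -0.13, and the zinc finger windows reach -0.26 in the highest class.

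Among the listed known loci, only the zinc finger gene clusters of chromosome 19 held regions called lower. Genes named after the values were seen are set apart. KRAB zinc finger genes encode the repressors that silence transposons, and their own clusters carry broad H3K9me3. Of 236 regions in the 7 windows 179 were called in all 4 libraries, 17 were lost and 1 was gained. Among the 179 tested, 24 (13.408%) were lower and none was higher in shp150_AP1 by edgeR's quasi-likelihood test, and 139 of 179 (77.7%) had a negative log2 difference. Over all tested regions 0.575% were lower and 44.9% negative. The median was -0.17, against 0.04 over all tested regions, and -0.01 over the 378 regions of chromosome 19 outside the windows, of which 2 were lower. The zinc finger regions were also wider, with a median of 34.6 kb against 8.20 kb, and the part of width in the calls was not tested.

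Levels were lower in both shp150_AP1 libraries in each of the 7 windows. The fold over the regions tested in 19q13.43 was 3.49 and 3.48 in shp150_AP1 and 4.37 and 4.59 in vector_NT. In 19q13.41-42 it was 3.61 and 3.53 in shp150_AP1 against 4.44 and 4.66 in vector_NT. In 19p12, the widest window, it was 2.98 and 3.01 in shp150_AP1 against 3.38 and 3.55 in vector_NT. The groups did not overlap in any window. The same held over all 27670 tested regions, where the fold was 1.79 and 1.71 in shp150_AP1 and 1.91 and 1.97 in vector_NT, and for single regions in 42.04% of those tested. Window medians of the log2 difference ran from -0.28, in the second 19p13.2 window and in 19q13.12, to -0.06 in 19p12.

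Of the 24 lower regions 9 lay in 19q13.43, 4 each in 19q13.12 and 19q13.41-42, 3 in 19p12, 2 in the second 19p13.2 window and 1 each in the first 19p13.2 window and 19q13.31. The strongest, at chromosome 19, 58281601 to 58314000, had folds of 3.24 and 3.15 in shp150_AP1 and 5.14 and 6.51 in vector_NT. Both shp150_AP1 values lay well under both vector_NT values, with a log2 difference of -0.72 ± 0.11 (SE, edgeR adjusted p = 3.96e-05). The widest, 422 kb at 58394001 to 58816400, had folds of 4.50 and 4.57 in shp150_AP1 against 6.06 and 6.31 in vector_NT. Its log2 difference was -0.32 ± 0.07 (SE, edgeR adjusted p = 0.00325).

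**Figure D3:**
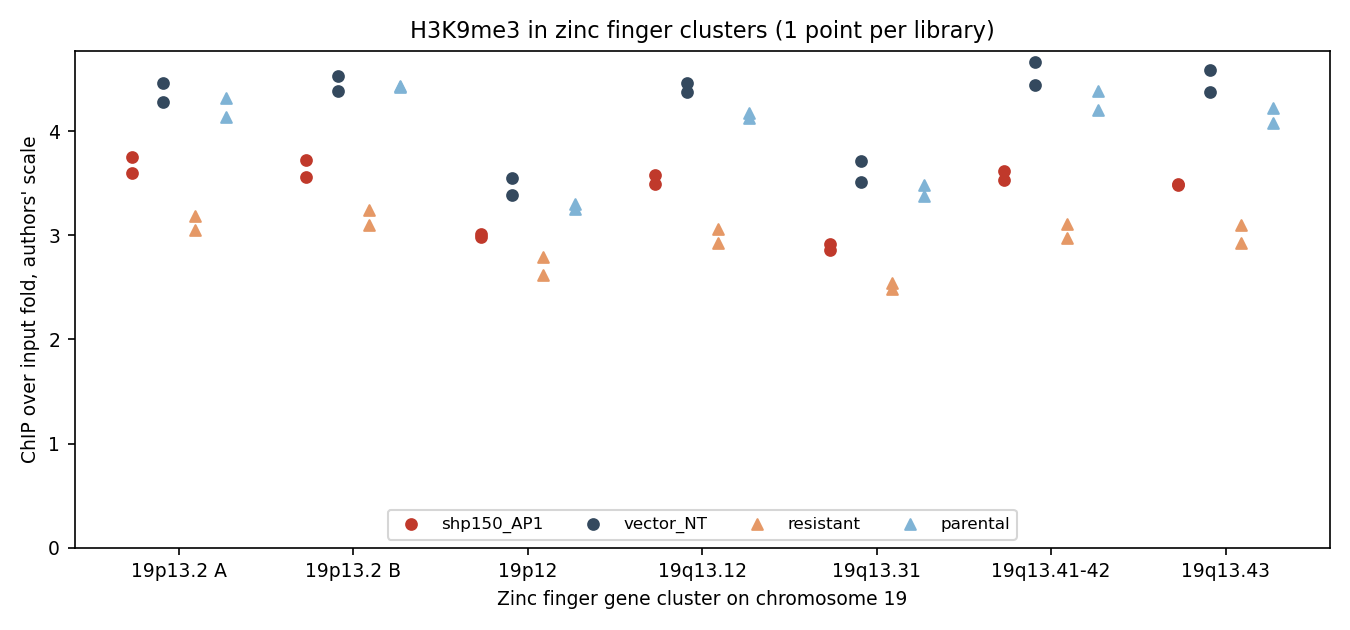
ChIP over input fold on the authors' scale in the 7 zinc finger windows of chromosome 19, 1 point per library, for shp150_AP1 and vector_NT over the regions tested, and for resistant and parental 451Lu cells over all islands they list there. shp150_AP1 lies below vector_NT in every window, and resistant lies below parental cells.

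Other strongly marked regions also had mostly negative values. In the highest parental class, 74 of 81 zinc finger regions and 1554 of 2406 other regions had a negative log2 difference, with medians of -0.26 and -0.12. Of these, 19 (23.5%) and 35 (1.45%) were called lower. Widths differed here too, with medians of 41200 and 6000 bp, and the difference between the sets was not tested. The number of zinc finger regions called lower was 72 on the authors' scaling, 5 with ChIP reads alone and 0 by limma on log2 ratios. It was 47 without shp150_AP1 replicate 2 and 15 without vector_NT replicate 2. No zinc finger region was called higher under any of these.

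Coverage by islands was lower as well. Islands covered 75.9% and 82.1% of the 7 windows in shp150_AP1 and 87.8% and 87.8% in vector_NT, and the groups did not overlap. Resistant cells had 74.5% and 72.8% and parental cells 80.6% and 80.9%. With lists of equal length, the coverage was 75.9% and 82.1% in shp150_AP1 and 87.5% and 87.7% in vector_NT.

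Outside the zinc finger clusters, 135 regions were lower, and the 6 lowest changes were in regions of 3.8 to 7.6 kb. At FZD7, which encodes a Frizzled receptor of WNT signalling, the region at chromosome 2, 202899401 to 202905600, had folds of 1.59 and 2.03 in shp150_AP1 and 5.37 and 5.46 in vector_NT. The groups lay far apart (log2 difference -1.46 ± 0.23 SE, edgeR adjusted p = 4.56e-05). At MLPH, which encodes melanophilin, the adaptor that ties melanosomes to myosin in pigment cells, chromosome 2, 238397401 to 238402000, had 2.38 and 3.09 in shp150_AP1 and 9.86 and 7.39 in vector_NT. Its log2 difference was -1.49 ± 0.26 (SE, edgeR adjusted p = 0.00043). These gene names, like CREBBP and GPR158, were added from general knowledge of hg19 after the values were seen.

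Both kept their direction in each alternative, and FZD7 kept its call in 14 of 15 alternatives and MLPH in 13 of 15. DESeq2 with its independent filtering, which gave no adjusted p at either region, is not among these alternatives. With ChIP reads alone the log2 difference at MLPH was -0.31 (edgeR adjusted p = 0.531), and islands covered 73.9% and 91.3% of its region in shp150_AP1 and 56.5% and 65.2% in vector_NT. In resistant and parental cells the MLPH region moved likewise, at 3.09 and 3.42 in resistant and 4.80 and 4.49 in parental cells. FZD7 did not separate there, at 5.05 and 2.07 in resistant and 4.82 and 6.39 in parental cells. A region of 7.6 kb at chromosome 4, 173779401 to 173787000, had 1.63 and 1.81 in shp150_AP1 and 4.71 and 4.65 in vector_NT.

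Within CREBBP, a histone acetyltransferase gene, chromosome 16, 3881001 to 3885000, had folds of 1.97 and 1.74 in shp150_AP1 and 5.49 and 5.04 in vector_NT. A region at chromosome 7, 93728801 to 93732600, had 2.29 and 1.67 in shp150_AP1 against 5.48 and 5.08 in vector_NT. Chromosome 19, 30078801 to 30083600, had 1.75 and 1.73 in shp150_AP1 against 3.28 and 6.46 in vector_NT. The log2 differences of these 6 regions, which were chosen as the lowest without overlap between groups, ran from -1.49 to -1.22. In the regions at CREBBP and on chromosome 7 the direction turned with ChIP reads alone, to log2 differences of 0.31 and 0.45. With ChIP reads alone it was -0.29 in the region on chromosome 4 (edgeR adjusted p = 0.631). In the region on chromosome 19 it was -0.06 (edgeR adjusted p = 0.923). With islands merged across gaps up to 5000 bp, the latter was -0.23 (edgeR adjusted p = 0.753). Islands covered 85% and 75% of the CREBBP region in shp150_AP1 and 65% and 45% in vector_NT. As at MLPH, they covered more in both shp150_AP1 libraries than in either vector_NT library. The same held on chromosome 7 (94.7% and 94.7% against 63.2% and 47.4%) and chromosome 4 (50% and 81.6% against 47.4% and 42.1%). At FZD7 they covered less, at 67.7% and 64.5% in shp150_AP1 and 80.6% and 100% in vector_NT. The part of island bounds in these changes was not tested.

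In 5 of the 6 regions with the highest changes, islands covered less of the region in both shp150_AP1 libraries than in either vector_NT library. Within GPR158, which encodes an orphan receptor, chromosome 10, 25673601 to 25681400, had folds of 5.87 and 7.28 in shp150_AP1 and 3.99 and 3.09 in vector_NT (log2 difference 1.04 ± 0.26 SE, edgeR adjusted p = 0.0216). Over the whole GPR158 window, though, islands covered 1.64% and 6.28% in shp150_AP1 and 8.38% and 8.38% in vector_NT. Of its 8 regions 2 were lost and none was gained, where 13.9% of all merged regions were lost and 1.86% gained. Chromosome 7, 19181601 to 19193600, had 3.18 and 3.80 in shp150_AP1 and 1.92 and 1.78 in vector_NT, but islands covered 28% and 25% of it in shp150_AP1 and 63% and 93% in vector_NT. With ChIP reads alone its log2 difference was -1.03, while the ratio of ChIP to input was higher (1.03 ± 0.22 SE, edgeR adjusted p = 0.0052). The direction also turned with ChIP reads alone at GPR158 (-0.15), at chromosome 4, 100694801 to 100703800 (-0.42), and at chromosome 7, 31879201 to 31886200 (-0.52). The regions at chromosome 8, 2315001 to 2319800, and chromosome 7, 144744801 to 144753000, kept their direction, with folds of 2.497 and 1.63 in shp150_AP1 against 0.81 and 1.17 in vector_NT at the first, and of 3.15 and 2.73 in shp150_AP1 against 1.775 and 1.5 in vector_NT at the other.

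**Figure D4:**
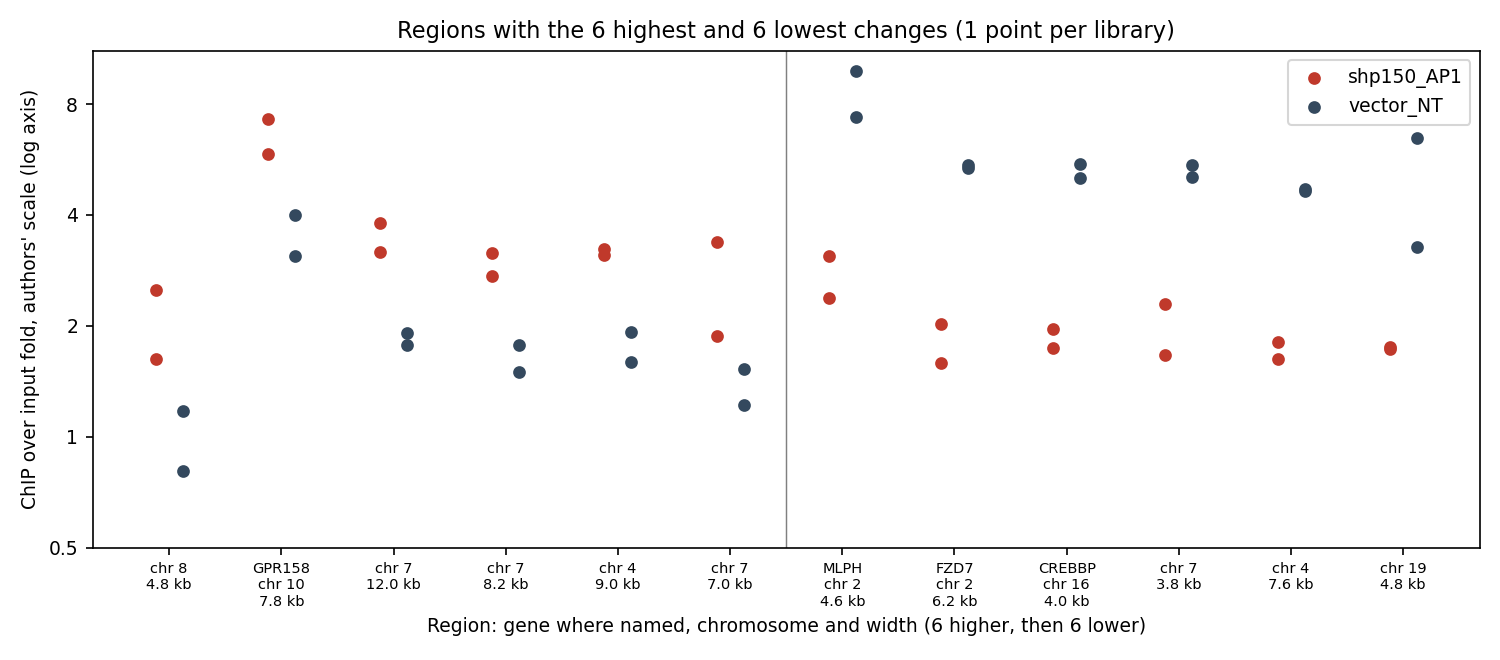
ChIP over input fold on the authors' scale (log axis) in the regions with the 6 highest (left of the line) and 6 lowest (right) log2 differences past the test, 1 point per library, shp150_AP1 in red and vector_NT in dark. Regions whose groups overlap were not eligible for this choice. FZD7 has 1.59 and 2.03 in shp150_AP1 and 5.37 and 5.46 in vector_NT.

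Many regions called higher lay in 3 stretches of the genome, which were delimited after the calls were seen and are given as a description. On chromosome 3, all 37 lay between 66925401 and 90131800, with log2 differences of 0.24 to 0.71. Their median folds were 1.24 and 1.19 in shp150_AP1 and 0.98 and 0.98 in vector_NT, so the folds stood near 1 in both groups and did not overlap between them. The widest, 1243 kb at 67497001 to 68739800, had 1.05 and 1.05 in shp150_AP1 and 0.89 and 0.89 in vector_NT. The tested regions of this stretch held 98.1 and 96.6 input reads per kb of island in shp150_AP1 and 86.4 and 92.4 in vector_NT, while all tested regions held 43.5 and 42.6 in shp150_AP1 and 35.5 and 37.4 in vector_NT. The stretch also held 54 of the 77 gained regions of chromosome 3, and 3 lost ones.

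On chromosome 11 all 13 higher regions lay between 69592201 and 75084200, with median folds of 0.82 and 0.72 in shp150_AP1 and 0.62 and 0.63 in vector_NT. These folds were under 1 in both groups, so scaled ChIP lay below input. Tested regions of this stretch held 85.3 and 85.5 input reads per kb of island in shp150_AP1 and 76.4 and 80.8 in vector_NT. On chromosome 20, 11 of 29 lay between 53143201 and 54541800, with 1.60 and 1.54 in shp150_AP1 against 1.29 and 1.32 in vector_NT. Input density there was 46.6 and 47.9 in shp150_AP1 and 40.7 and 43.3 in vector_NT, nearer to that of all tested regions. In these 3 stretches 263 of 343, 82 of 107 and 26 of 27 tested regions had a positive log2 difference, against 55.1% of all tested regions, and the bounds were set by the higher calls themselves. Resistant cells had the higher values of their own pair in the higher regions of all 3 stretches. On chromosome 3 these were 1.18 and 1.22 against 1.10 and 1.06 in parental cells, on chromosome 11 0.79 and 0.81 in resistant against 0.66 and 0.69 in parental cells, and on chromosome 20 1.499 and 1.64 in resistant against 1.355 and 1.34 in parental cells. The part of dense input in the higher calls was not tested.

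The other known loci showed no region past the test. In 3 olfactory receptor clusters, the tandem arrays of odorant receptor genes, 14 regions were tested with a median of 0.21. Of the regions there 10 (9.9%) were lost and 3 (2.97%) gained, near the 13.9% and 1.86% of all merged regions. In 12 other clusters and domains 45 regions were tested with a median of 0.10. The clustered protocadherins at 5q31, cell-surface genes of neurons, held 9 regions called in all 4 libraries with a median of 0.00. The fold over these regions together was still lower without overlap, at 2.78 and 2.68 in shp150_AP1 and 3.26 and 3.43 in vector_NT. Islands covered 71.6% and 76.6% of that window in shp150_AP1 and 76.1% and 75.8% in vector_NT, so the groups overlapped in coverage. This fold was also lower without overlap in the HOXB, HOXD, MMP and SNRPN windows. In HOXA, with 1 tested region, it was higher without overlap. The SNRPN domain, an imprinted region at 15q11, held 70 regions, of which 22 were tested with a median of 0.15, 4 were lost and 3 gained. In HOXB a region at chromosome 17, 46732601 to 46738000, had 1.49 and 1.32 in shp150_AP1 and 3.36 and 2.72 in vector_NT, and missed the threshold (log2 difference -0.98 ± 0.28 SE, edgeR adjusted p = 0.0594).

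Of the 19 windows of single genes, 14 held no region. These were JUN and FOS, which encode AP-1 partners, FOSL1, CHAF1A and CHAF1B of CAF-1, AXL, PDGFRB, WNT5A, NGFR, CDH2, SOX10, PMEL, MLANA and DCT. The number of ATAC-seq peaks in these 14 windows was higher in both shp150_AP1 libraries in 3, lower in both in 2, and overlapped between the groups in 9. JUN had 2 and 2 peaks in shp150_AP1 against 1 and 1 in vector_NT, FOS 3 and 2 in shp150_AP1 against 1 and 1 in vector_NT, and FOSL1 2 and 2 in shp150_AP1 against 1 and 1 in vector_NT. For JUN and FOS, which shp150_AP1 cells over-express, peak positions alone cannot tell the gene's own DNA from an introduced copy. WNT5A had 1 and 1 in shp150_AP1 against 3 and 2 in vector_NT, and DCT 1 and 1 in shp150_AP1 against 2 and 2 in vector_NT. KIT, a receptor tyrosine kinase of melanocytes, lost 3 of its 4 regions, where 13.9% of all merged regions were lost. They were 2.4, 4 and 5 kb wide, with islands over 1.93% and 0% of its window in shp150_AP1 and 12.05% and 17.1% in vector_NT.

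At TYRP1, a pigment enzyme gene, 1 region of 7.2 kb was lost, with folds of 1.64 and 2.11 in vector_NT. Islands covered 0% of the gene's own window in vector_NT replicate 1 and 11.1% in replicate 2, so in replicate 1 the island lay beside the window. TYR, which encodes tyrosinase, kept its region at 2.10 and 3.16 in shp150_AP1 against 4.54 and 3.40 in vector_NT, a difference that missed the threshold (log2 difference -0.49 ± 0.19 SE, edgeR adjusted p = 0.246). MITF lay inside a wide island with folds of 0.95 and 0.95 in shp150_AP1 and 1.02 and 1.02 in vector_NT, where folds stood near 1. EGFR had 1 tested region, at 1.48 and 1.70 in shp150_AP1 and 1.21 and 1.56 in vector_NT, where the groups overlapped (log2 difference 0.35 ± 0.30 SE, edgeR adjusted p = 0.71).

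The lost and gained regions were then looked up in the libraries of resistant and parental cells, which share no sample with the comparison. Of the lost regions 9.45% and 12.9% were called in the 2 resistant libraries and 59.6% and 69.8% in the 2 parental ones. Gained regions had the reverse order, with 54.1% and 58.1% in resistant and 17.3% and 23.3% in parental libraries. Regions called in all 4 libraries were called in 77.3% and 82.3% of cases in resistant and in 93.5% and 95.8% in parental libraries. Resistant cells also had shorter island lists than parental ones, and lists of equal length gave another picture of the gains: 60.5% of them were called in both resistant and 57.2% in both parental libraries, in place of 41.97% and 8.57%.

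By the same rule 12634 (15.6%) of the merged regions were lost and 2220 (2.74%) gained in resistant against parental cells. The 4283 regions lost in both comparisons made up 38.1% of the shp150_AP1 losses and 33.9% of the resistant losses. The 428 regions gained in both made up 28.4% of the shp150_AP1 gains and 19.3% of the 2220 resistant gains. Opposite changes were fewer, with 27 regions gained in shp150_AP1 and lost in resistant cells and 42 the reverse.

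Among regions called in all 4 libraries the ratios of resistant and parental cells can be set beside the calls. All 147 regions called lower that had values in those libraries were also lower in resistant than in parental cells, with a median log2 ratio of -0.61 on the authors' scale. Of 127 regions called higher, 28 were lower in resistant cells, and the median was 0.15. Over 17630 tested regions with values 84.0% were lower in resistant cells, with a median of -0.28.

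Open chromatin was counted inside the same regions. Lost regions held 10.9 and 11.8 ATAC-seq peaks per Mb in shp150_AP1 and 11.3 and 10.5 in vector_NT, so the groups overlapped. Gained regions held 15.3 and 15.9 peaks per Mb in shp150_AP1 and 14.03 and 12.8 in vector_NT. Constant regions, those called in all 4 libraries, held 16.8 and 17.9 in shp150_AP1 and 15.6 and 14.3 in vector_NT. In gained and constant regions both shp150_AP1 libraries lay above both vector_NT libraries, and their whole peak lists held 84393 and 88478 peaks in shp150_AP1 against 84718 and 79670 in vector_NT.

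**Figure D5:**
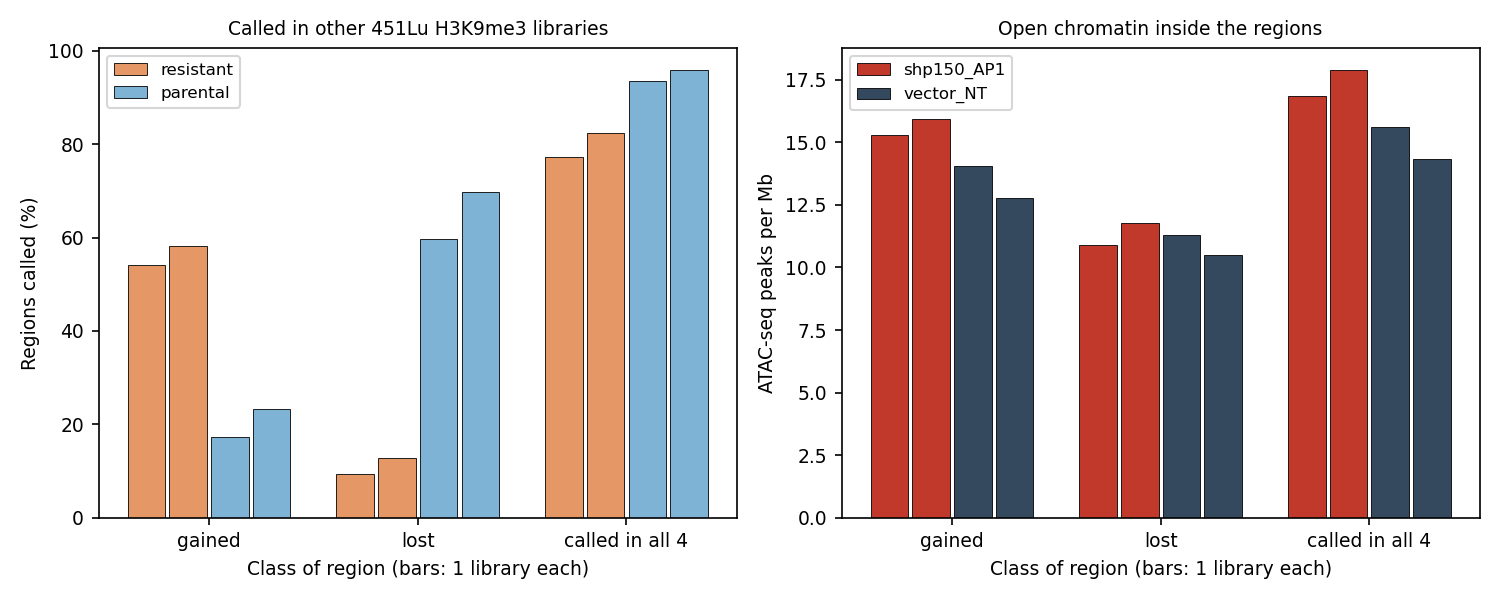
Left, share of gained, lost and constant regions called in each resistant and parental H3K9me3 library, in percent. Right, ATAC-seq peaks per Mb inside the same regions in each shp150_AP1 and vector_NT library, 1 bar per library. Lost regions are called in 9.45% and 12.9% of cases in resistant against 59.6% and 69.8% in parental libraries, and hold 10.9 and 11.8 peaks per Mb in shp150_AP1 against 11.3 and 10.5 in vector_NT.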

How the data were processed

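H3K9me3 ChIP-seq and input libraries were made from sonicated crosslinked chromatin with NEBNext Ultra II kits, per the labels' protocols. SICER, Bowtie2, MACS2, Picard and the hg19 build are named in the submitters' processing notes, without settings. The deposited island lists give, per library, read counts of ChIP and input, a p-value, a false discovery rate and a fold, the ratio of ChIP to input times 1 factor per library set by the authors. The deposited ATAC-seq peak lists were used for their positions only, and the authors' peak score was not used. The input of shp150_AP1 replicate 1 was read from its island list.

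Islands on chromosomes 1 to 22 and X were merged where they overlapped or touched, and a library counted as calling a merged region when its islands covered at least 1 bp. Coordinates are printed from 1. For regions called in all 4 libraries with at least 20 ChIP and 10 input reads in each, summed counts were fitted with edgeR 4.0.16 (R 4.3.3; TMM factors, quasi-likelihood test, library and ChIP terms, ChIP by group tested, Benjamini-Hochberg threshold 0.05). On simulated data with 27670 regions, 20% of 1.5-fold and 58% of 2-fold changes (100 each) were recovered, with 5 false calls. These counts were drawn independently with the fitted dispersion trend. They had no island bounds that differ between libraries and no dispersion particular to a region. The simulation thus gives no error rate for the real calls. limma 3.58.1 and DESeq2 1.42.0 served as alternatives. Reads are not independent molecules, so counting precision is an upper limit.

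Named regions were the 4 highest in ratio and the 3 widest among gained and among lost regions (ratios with at least 50 ChIP and 10 input reads in each calling library), and the 6 highest and 6 lowest changes with at least 100 ChIP and 20 input reads and no overlap. The 41 windows of known loci were written from general knowledge of hg19, and no annotation of that build was used. The members and lists were chosen with earlier results of these data known.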

Additional observations from a re-analysis of the deposited data

How the results depend on the processing

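Gained and lost regions numbered 856 and 7156 when islands were merged across gaps up to 5000 bp, and 746 and 3132 (4.198 lost per gained) among regions of at least 5000 bp. Lists of equal length gave 4192 and 7453 (1.78 lost per gained; 30.9 and 29.1 Mb), and counting bases gave 13.6 Mb gained. Leaving out 1 library gave 2188 to 8224 gained, 15762 to 23741 lost and 1.92 to 10.9 lost per gained. Regions higher and lower in ChIP over input numbered 79 and 89 with DESeq2, whose independent filtering left 2457 regions with an adjusted p. Without that filtering they numbered 36 and 50 of 27670. With the authors' factors they numbered 34 and 511, and with ChIP reads only 635 and 473. They numbered 0 and 0 with limma on log2 ratios (1418 and 1123 at an unadjusted p under 0.05), 339 and 275 with at least 50% of the region covered, and 100 and 93 with merged gaps. limma with the variance trend on reads gave 66 and 146, and a parental fold of at least 1.5 gave 34 and 140. Without 1 library they numbered 44 to 188 and 93 to 276, with more lower than higher calls in each case except without shp150_AP1 replicate 1 (188 and 138). The zinc finger count of 24 became 72 with the authors' factors, 5 with ChIP reads only, 0 with limma on ratios, 6 with merged gaps, 12 with DESeq2 without filtering and 15 to 47 without 1 library. With a replicate block the counts were 181 higher, 187 lower and 26 in the zinc finger windows, each within 1.5 times the main count. Deviations of same-numbered libraries correlated at -0.008 over regions. With 2 libraries per group this cannot show whether a number marks a shared batch, which the labels do not state. ChIP reads only turned the direction at chromosome 10, 25673601 (-0.15), chromosome 7, 19181601 (-1.03) and 31879201 (-0.52), chromosome 4, 100694801 (-0.42), chromosome 16, 3881001 (0.31) and chromosome 7, 93728801 (0.45). Over the 12 regions 98 of 170 values kept direction and call, 66 lost the call and 6 reversed. These values leave out DESeq2 with its independent filtering, which gave none of the 12 an adjusted p. Coverage of single-gene windows differed by -0.732 points with equal lists, and that of melanocytic windows by 23.9 with equal lists and -12.1 at a false discovery rate of at most 0.01, where the wide island over MITF is listed in some libraries only. Gained regions were called in both resistant libraries in 60.5% and in both parental in 57.2% with equal lists, and in 52.9% and 31.4% with 50% covered. With 50% covered, lost regions were at 13.7% and 61.3% and constant ones at 79.6% and 94.9%, and constant ones reached 92.9% in parental with equal lists. The ATAC-seq difference in lost regions was -0.310 peaks per Mb with equal lists. The cause of these changes was not tested. The DESeq2 setting without filtering, the limma variance trend on reads and the parental fold limit were chosen after seeing the data. Regions with few input reads limit what can be called.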
